A study of Mus musculus with 4 samples.

Results

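Macrophage barcodes with transcripts of Folr2, Cbr2 and Stab1 made up a large minority of the cells recovered from TC-1 tumours, and they are described here across tumours from PBS-treated and cisplatin-treated mice. A barcode was counted when it had at least 500 detected genes, at most 10% of its unique molecular identifiers (UMIs, which count captured transcripts) from mitochondrial genes, and at least 1 UMI of 3 or more of the 5 genes Cd163, Folr2, Cbr2, Stab1 and Cd209f. Members were selected on these measured UMI counts. These rule barcodes numbered 6381 of the 23294 barcodes that met the gene and mitochondrial limits, or 27.4%, out of 30053 deposited barcodes. The working name for the population leads with Cd163, but only 506 of the 6381 (7.93%) held a Cd163 UMI and 33 (0.517%) held Cd209f, whereas 6258 (98.1%) held Folr2, Cbr2 and Stab1 together. They are therefore called by the rule, as Folr2, Cbr2 and Stab1 barcodes.

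All 4 libraries came from C57/bl6 wild-type mice that carried a subcutaneous TC-1 tumour, grown from a transplanted mouse lung epithelial tumour line after injection of 300000 cells. The groups were PBS, and 1, 3 and 7 days after a single intraperitoneal dose of cisplatin (6 mg/kg), a platinum drug that damages DNA, given once the tumour measured 40 mm². Each group is 1 library and the number of mice behind it is not stated. The PBS library carries no collection day, and its labels give both PBS and no treatment. The sort took CD45+, lineage-negative, CD90+ and CD127+ cells, a gate for innate lymphoid cells, and 15000 cells were captured per library.

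Macrophages that reside in connective tissue commonly carry the folate receptor FOLR2, the scavenger receptor stabilin-1 (Stab1), carbonyl reductase 2 (Cbr2) and the mannose receptor MRC1 (Mrc1), and take up dead cells, modified lipoproteins and matrix fragments. Monocytes that enter a tumour from blood carry Ly6C and the chemokine receptor CCR2, and their macrophage progeny often display class II major histocompatibility complex (MHC II) molecules, which present peptides to CD4 T cells. Cd163 encodes the scavenger receptor for haemoglobin bound to haptoglobin, and Cd209f a C-type lectin of the DC-SIGN family.

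From PBS through days 1, 3 and 7, the libraries held 10063, 10745, 6264 and 2981 barcodes and 59915831, 82493626, 36587207 and 16153484 UMIs, and values in sets of 4 follow that order. Rule barcodes were deeper than the 12528 other macrophage barcodes they are set against, with median UMIs of 7678, 12181, 9645 and 7197, against 5460, 7446.5, 6251 and 4550. Those other barcodes failed the rule and drew at least 1% of their UMIs from 10 general macrophage genes. They also held at most 1 UMI of 8 T and natural killer (NK) cell genes (Cd3d, Cd3e, Cd3g, Trac, Trdc, Ncr1, Klrb1c and Nkg7). Rule barcodes had no such limit, and 691 of them (10.8%) held more than 1 UMI of those 8 genes, at 2.96% in PBS, 18.1% on day 1, 21.5% on day 3 and 7.57% on day 7. Pairs of libraries shared between 0 and 2 rule barcode sequences. No doublet call was usable, because the automatic threshold of the doublet caller marked 0 barcodes in each library. Removing the highest doublet scores instead would take out 294, 351, 35 and 15 rule barcodes, and this was run as an alternative. These were 10.5%, 12.8%, 10.3% and 3.07% of rule barcodes, against 6.83%, 5.37%, 3.78% and 1.98% of the other macrophage barcodes.

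Of the genes of the sort gate, Thy1 and Il7r were low in the rule barcodes and Ptprc was not. In UMIs per 1000000 UMIs of the summed class (CPM), Thy1, which encodes CD90, stood at 5.77 in PBS, 23.9 on day 1, 43.7 on day 3 and 15.2 on day 7. Il7r, which encodes CD127, stood at 12.8, 57.6, 68.3 and 6.82 CPM, while Ptprc, which encodes CD45, stood at 307, 392, 442 and 170 CPM. A list of 16 general macrophage genes summed to 48418, 54761, 51347 and 63511 CPM in the rule barcodes, against 47820, 52642, 43501 and 58503 CPM in the other macrophage barcodes. The other class was chosen for such RNA, so these sums only show that the rule barcodes carried it too. The 12 T cell markers summed to 36.5, 187, 287 and 131 CPM in rule barcodes, against 14.5, 54.8, 46.3 and 26.1 CPM in the others, and the 10 NK cell markers to 22.6, 103, 355 and 87.9 CPM, against 8.91, 32.0, 76.8 and 24.2 CPM. Several of these markers are among the 8 genes on which only the other class was limited. Its lower sums thus follow at least in part from that limit. In rule barcodes the 8 osteoclast markers summed to 186, 324, 217 and 47.2 CPM, the 10 fibroblast markers to 46.5, 110, 41.2 and 411 CPM, the 10 neutrophil markers to 16.6, 70.0, 44.0 and 19.4 CPM, and the 9 tumour epithelial markers to between 0 and 0.830 CPM, with Krt19, Cldn6, Sftpc and Nkx2-1 at 0.

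The rule itself rested on few molecules per barcode. The median rule barcode held 2 UMIs of Folr2 in PBS, 3 on day 1, 3 on day 3 and 2 on day 7. Medians for Stab1 were 5, 7, 3 and 3 UMIs, and for Cbr2 3, 3, 2 and 2 UMIs. Just inside the rule, with exactly 3 genes, lay 2699, 2487, 336 and 454 barcodes, and just outside, with 2 genes, lay 2426, 1946, 801 and 614. Median UMIs were 7665, 12127, 9645 and 7164.5 with 3 genes, against 6346, 9291, 8085 and 5866.5 with 2. In barcodes with at least 5 UMIs of the 8 lymphoid genes and under 1% macrophage UMIs, which should lack the rule genes, 0.694%, 2.59%, 0.355% and 0% passed the rule, the last being 0 of 131 barcodes with an upper exact 95% limit of 2.78%. The median depth of those lymphoid barcodes was 2381, 4076, 3903 and 2575 UMIs. Without the macrophage limit, 16.5%, 32.3%, 5.44% and 10.8% of barcodes with at least 5 lymphoid UMIs passed the rule, at median depths of 3331, 10049, 5748 and 3960 UMIs.

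Folr2, Cbr2 and Stab1 barcodes were frequent in the PBS and day 1 libraries and scarce on day 3. In PBS 2803 barcodes passed, or 34.7% of those kept (exact Clopper-Pearson 95% interval 33.7 to 35.8%). The day 1 library held 2749 (36.7%, interval 35.6 to 37.8%), the day 3 library 340 (6.85%, interval 6.16 to 7.59%) and the day 7 library 489 (17.6%, interval 16.2 to 19.1%). Day 3 was the lowest and day 7 lay between it and the other libraries. With the macrophage and lymphoid limits of the comparison class put on both classes, 2673, 2208, 264 and 452 rule barcodes made up 38.0%, 39.7%, 7.99% and 20.4% of macrophage barcodes. When every barcode was thinned to 2000 UMIs, which left out 505, 555, 565 and 391 shallower barcodes, the shares of kept barcodes were 9.52% (8.87 to 10.2%), 7.81% (7.19 to 8.46%), 1.43% (1.10 to 1.83%) and 4.58% (3.78 to 5.50%). The order of PBS and day 1 turned round under thinning, and day 3 remained the lowest.

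The 3 main rule genes were each detected least often on day 3. Over all kept barcodes, Stab1 was detected in 76.9% in PBS, 77.9% on day 1, 40.5% on day 3 and 52.5% on day 7. Cbr2 was detected in 55.8%, 52.3%, 15.2% and 34.7%, and Folr2 in 53.8%, 54.2%, 29.7% and 38.6%. Rule barcodes held 72.2%, 80.3%, 33.3% and 55.4% of the Folr2 UMIs of all kept barcodes, so on day 3 most Folr2 RNA lay outside them. Intervals cover counting error only, and the sort, its yield, the mice and the day cannot be told apart with 1 library per group.

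**Figure D1:**
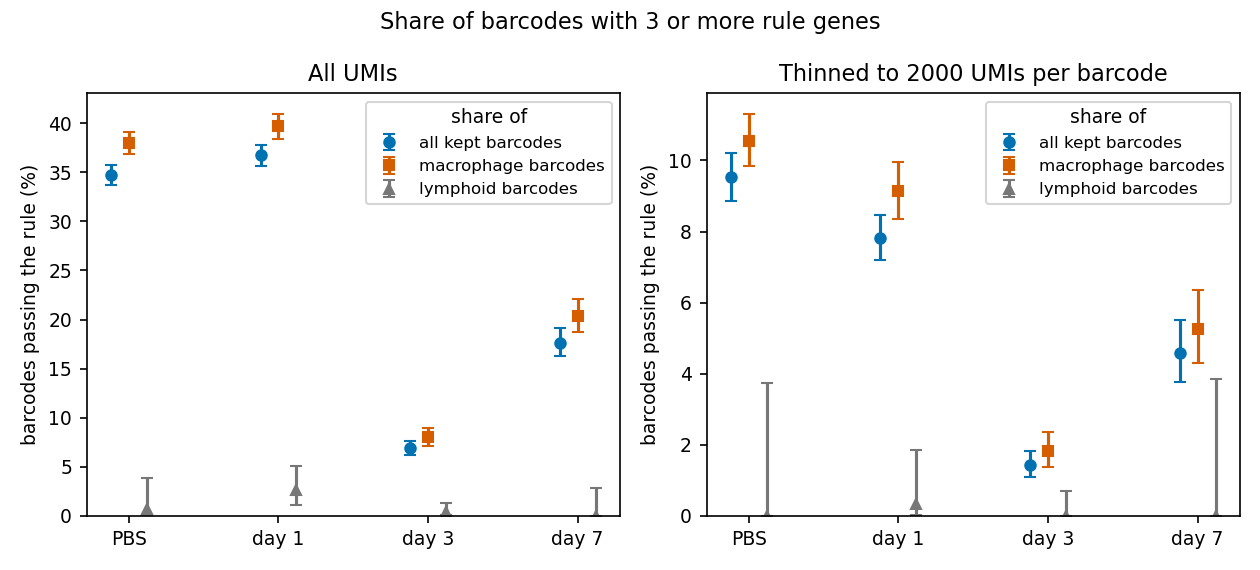
Percentage of barcodes with 3 or more of the 5 rule genes in PBS and on days 1, 3 and 7 after cisplatin, with all UMIs and after thinning to 2000 UMIs per barcode. Points are shares of kept barcodes, or of macrophage barcodes with the macrophage and lymphoid limits on both classes, and bars are exact 95% intervals. With all UMIs 6.85% of kept barcodes passed on day 3, against 34.7% in PBS.

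Barcodes on either side of the rule formed a graded series. Npl, which encodes N-acetylneuraminate pyruvate lyase, an enzyme of sialic acid breakdown, stood at 16.6 CPM with 2 rule genes, 60.0 with 3 and 135 with 4 or 5 in PBS. The same 3 classes gave 10.0, 51.7 and 140 CPM on day 1, 5.06, 33.9 and 155 CPM on day 3, and 28.6, 104 and 309 CPM on day 7. The MHC II beta chain gene H2-Ab1 ran the other way in each library. It stood at 152, 80.1 and 38.1 CPM in PBS, and at 1232, 549 and 377 CPM on day 3. The receptor gene Csf1r, carried by macrophages in general, stood at 725, 779 and 738 CPM in PBS. Median depth also rises with the number of rule genes, as given above, and its part in the graded levels was not tested here. These levels are a description, since the number of rule genes sorts the barcodes.

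**Figure D2:**
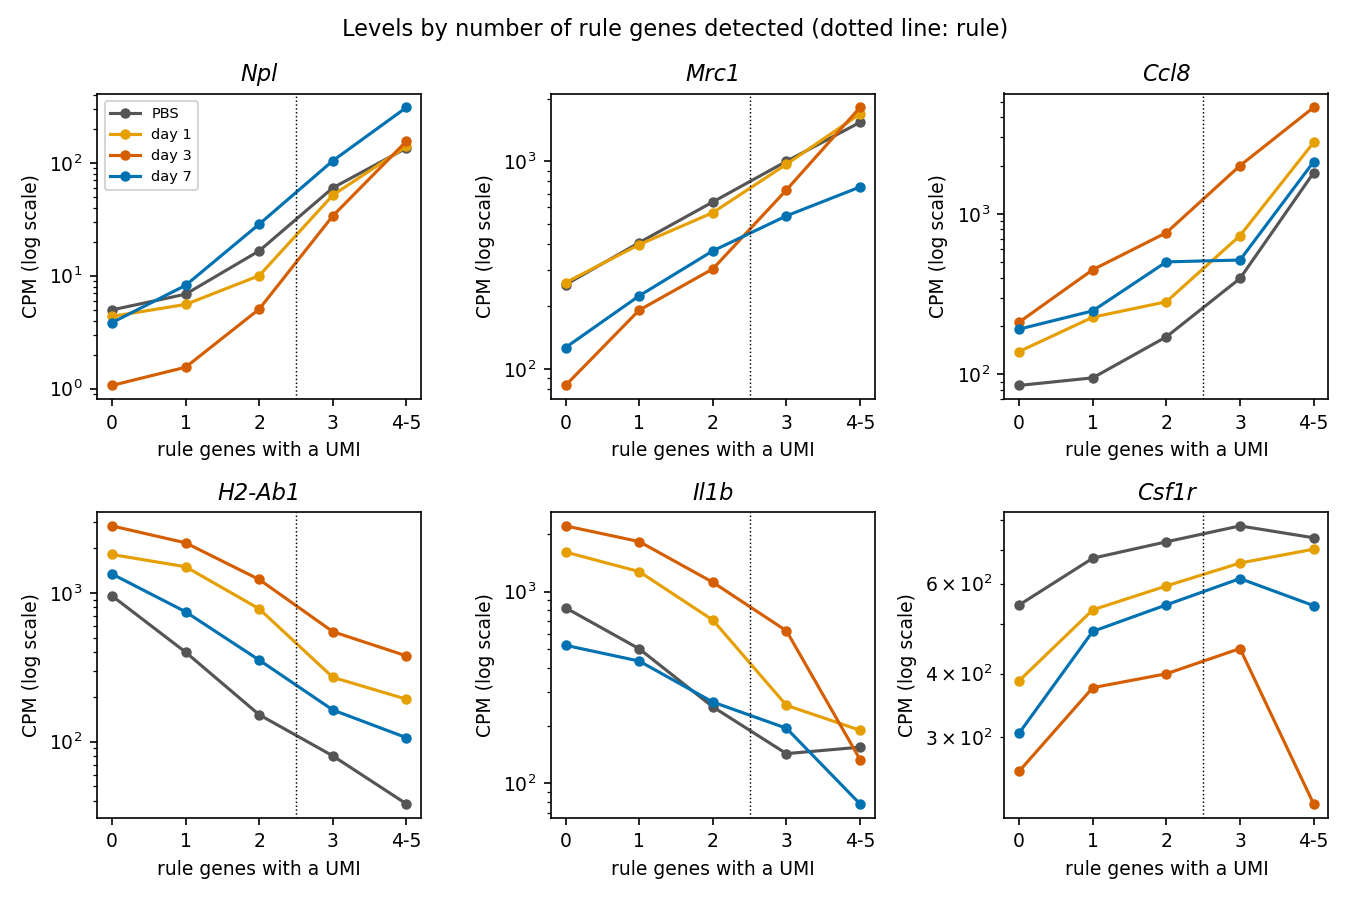
Summed CPM (log axes) of 6 genes in barcodes with 0, 1, 2, 3 and 4 or 5 rule genes, 1 line per library, with the rule at the dotted line. In the PBS library Npl stood at 16.6 CPM with 2 rule genes and 60.0 with 3, H2-Ab1 at 152 and 80.1, and Csf1r at 725 and 779. The day 3 points at 4 or 5 rule genes rest on 4 barcodes.

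Set against the other macrophage barcodes of the same libraries, Folr2, Cbr2 and Stab1 barcodes had more RNA of resident macrophage genes and of several CCL chemokine genes, and less of MHC II, inflammatory, monocyte and interferon-response genes. Counts were summed per library and class and fitted with edgeR's quasi-likelihood test with the library as a block, over 4 pairs. The p-values thus measure how the difference between the classes varied across these libraries. Each library is another condition without a replicate, so a change of that difference with condition counts as spread. With Benjamini-Hochberg adjusted p under 0.05, 1210 of 12370 tested genes were higher (9.78%) and 1564 were lower (12.6%), with a median log2 fold change over all genes of -0.01. The rule and the readout use the same RNA, so genes that go with the rule genes differ by its construction. The UMIs of each barcode were also split at random in 2 parts, with the rule applied to one and the test to the other. Of 11050 genes then tested, 645 were higher and 1048 lower. Of these, 599 and 965 were among the calls above. Without the day 1 library 533 of 11684 genes were higher and 841 lower. Without the library block 0 genes passed, and 577 of 12370 had an unadjusted p under 0.05, a share below that same 0.05.

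Resident macrophage genes were mostly higher in the rule barcodes. The list had 23 tested genes, 20 of them higher and 1 lower, at a median log2 fold change of 0.69, and split UMIs gave 18 higher and 1 lower. Lyve1, a hyaluronan receptor of macrophages along vessels, stood at 6.15, 8.15, 0.830 and 11.5 CPM in rule barcodes of PBS, day 1, day 3 and day 7, against 0.617, 1.16, 0.100 and 0.586 CPM in the other macrophage barcodes. Its log2 fold change was 3.13 ± 0.22 (SE, adjusted p = 1.07e-05, edgeR). Lyve1 RNA was scarce even so, and on day 3 it rested on 3 UMIs in the rule barcodes. Npl stood at 62.9, 60.9, 35.4 and 121 CPM, against 13.5, 9.18, 2.41 and 16.6 CPM, a log2 fold change of 2.62 ± 0.15 (adjusted p = 3.09e-06, edgeR). In each library the rule barcodes were the higher of the pair for both genes.

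Mrc1, the mannose receptor, reached 1022, 1045, 742 and 564 CPM in rule barcodes, against 611, 581, 230 and 308 CPM, a log2 fold change of 0.95 ± 0.12 (adjusted p = 0.000358, edgeR). After thinning to 2000 UMIs, Mrc1 was detected in 77.6%, 74.7%, 53.8% and 59.3% of rule barcodes, in 59.3%, 58.3%, 26.5% and 42.6% of the other macrophage barcodes, and in 28.8%, 32.0%, 9.33% and 23.3% of lymphoid barcodes (at least 5 lymphoid UMIs, those passing the rule left out). These lymphoid barcodes had no limit on macrophage UMIs, so their values are not a background rate of cells without the gene. Fcgrt, which encodes the receptor that recycles IgG, stood at 235, 262, 206 and 275 CPM, against 126, 125, 53.6 and 128 CPM (log2 fold change 1.14 ± 0.12, adjusted p = 0.000152, edgeR). The lectin gene Fcna had a log2 fold change of 1.50 ± 0.10. Maf, a transcription factor of macrophages, had one of 0.66 ± 0.06 (adjusted p = 6.25e-05, edgeR). Timd4, which encodes a receptor for dying cells on some resident macrophages, had 3, 8, 0 and 0 UMIs in the rule barcodes.

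Genes for uptake of dead cells gave a mixed picture. Gas6, the bridging protein between phosphatidylserine and the TAM receptors, stood at 141, 144, 97.9 and 170 CPM in rule barcodes, against 51.9, 44.2, 17.6 and 65.7 CPM, a log2 fold change of 1.61 ± 0.12 (adjusted p = 1.7e-05, edgeR). Of its receptors, Axl was lower, at 22.4, 26.0, 56.7 and 26.8 CPM, against 51.3, 54.5, 106 and 64.9 CPM (log2 fold change -1.18 ± 0.06, adjusted p = 1.28e-06, edgeR). Mertk had a log2 fold change of 0.24 ± 0.12 (adjusted p = 0.18, edgeR). The ligand and the AXL receptor thus ran in opposite directions between the classes. Of 17 efferocytosis genes 5 were higher and 4 lower (median 0.06), and of 18 scavenger and iron genes 11 were higher and 3 lower (median 0.21). The lysosomal protease gene Ctsd stood at 2434, 1921, 2137 and 1977 CPM, against 1509, 1189, 1029 and 1064 CPM (log2 fold change 0.75 ± 0.05, adjusted p = 1.29e-05, edgeR).

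Some growth factor and receptor genes were higher, although their lists leaned the other way. Igf1, insulin-like growth factor 1, stood at 31.0, 28.5, 12.4 and 35.1 CPM in rule barcodes, against 12.5, 8.06, 2.51 and 15.1 CPM, with a log2 fold change of 1.48 ± 0.12 (adjusted p = 2.9e-05, edgeR). Pdgfc, a platelet-derived growth factor, had one of 1.16 ± 0.11, Gfra4, a co-receptor of the GDNF family, one of 2.37 ± 0.21, and Cd55, which speeds decay of complement convertases, one of 2.08 ± 0.23. Vegfa, the vascular endothelial growth factor gene, was lower, at 59.3, 82.1, 172 and 87.3 CPM, against 107, 221, 267 and 194 CPM (log2 fold change -1.11 ± 0.10, adjusted p = 6.46e-05, edgeR). Over 23 cytokine and growth factor genes 4 were higher and 10 lower (median -0.17), and over 20 cytokine and chemokine receptor genes 2 were higher and 12 lower (median -0.25). Of 12 genes of alternative activation 6 were higher and 3 lower (median 0.29), among them Il4ra, the receptor chain for interleukin 4 (0.46 ± 0.05), and Cd200r1, an inhibitory receptor (0.77 ± 0.08).

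The chemokine genes were divided. Of 19 tested, 8 were higher and 9 lower (median log2 fold change -0.36), and with split UMIs 7 and 9. Ccl8, a ligand that draws monocytes and T cells, stood at 450, 948, 2033 and 650 CPM in rule barcodes, against 161, 283, 543 and 404 CPM, a log2 fold change of 1.39 ± 0.15 (adjusted p = 0.000133, edgeR). Ccl7 stood at 769, 689, 1726 and 2598 CPM, against 404, 391, 1155 and 1771 CPM (0.64 ± 0.06, adjusted p = 8.2e-05, edgeR). Ccl6 and Ccl24 were higher too, with log2 fold changes of 0.66 ± 0.07 and 1.00 ± 0.22. The neutrophil attractant gene Cxcl2 was lower, at 1835, 1926, 3306 and 1090 CPM, against 3143, 4244, 5887 and 1989 CPM (-0.98 ± 0.06, adjusted p = 2.69e-06, edgeR). The T cell attractant genes Cxcl9, Cxcl10 and Ccl5 were lower as well, by log2 fold changes of -1.73 ± 0.14, -0.80 ± 0.09 and -1.72 ± 0.13.

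MHC II genes were among the lowest genes of the rule barcodes, and the starts of 2 of them are shown because the class II chain genes moved together. Each run is the 200 bases before the RefSeq start (build GRCm38.p6) in the gene's own direction, with CCAAT in capitals where found on either strand (ATTGG is its reverse complement). H2-Aa lies at chr17:34287824-34288023 on the minus strand and H2-Eb1 at chr17:34305667-34305866 on the plus strand.
H2-Aa: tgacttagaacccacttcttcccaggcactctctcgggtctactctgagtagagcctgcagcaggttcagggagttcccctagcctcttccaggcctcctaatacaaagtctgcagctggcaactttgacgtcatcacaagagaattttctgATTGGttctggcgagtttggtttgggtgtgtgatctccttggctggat
H2-Eb1: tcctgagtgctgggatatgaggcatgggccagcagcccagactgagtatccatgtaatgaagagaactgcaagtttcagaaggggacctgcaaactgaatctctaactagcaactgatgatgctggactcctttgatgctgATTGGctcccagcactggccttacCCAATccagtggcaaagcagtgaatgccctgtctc
The H2-Aa run holds 1 match and the H2-Eb1 run 2. Of the 8 genes of the MHC II list with a start in the table, 7 hold CCAAT in this window at any of their starts. Of all 32851 single starts 9641 hold it (29.3%), an unlike measure, since a gene with several starts has several chances. A match is a description of the letters only.

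Of 13 MHC II and co-stimulation genes 11 were lower and 0 higher (median log2 fold change -1.03), and split UMIs left 9 lower and 0 higher of 12. H2-Aa, the alpha chain, stood at 57.2, 248, 527 and 129 CPM in rule barcodes, against 320, 1322, 2521 and 925 CPM, a log2 fold change of -2.56 ± 0.07 (adjusted p = 1.89e-08, edgeR). H2-Ab1 stood at 78.5, 262, 547 and 158 CPM, against 397, 1415, 2673 and 1046 CPM (-2.52 ± 0.06, adjusted p = 1.34e-08, edgeR). H2-Eb1 had a log2 fold change of -2.64 ± 0.07 and Cd74, the invariant chain, one of -2.52 ± 0.11. Summed levels of both classes were highest on day 3. The median share of a barcode's UMIs from H2-Aa, H2-Ab1, H2-Eb1 and Cd74 was 0.0105%, 0.0319%, 0.0684% and 0.0232% in rule barcodes, against 0.0140%, 0.0710%, 0.262% and 0.0416% in the others. In PBS the lower quartile was 0 in both classes, so these medians lay near the floor and the gap there cannot be judged. On day 3 the gap was wide. Ciita, the master activator of class II transcription, stood at 0.842, 1.65, 4.42 and 1.05 CPM, against 3.74, 7.99, 12.5 and 3.28 CPM (-2.13 ± 0.17, adjusted p = 1.98e-05, edgeR). Per barcode, H2-Aa, H2-Ab1, H2-Eb1 and Cd74 together took more than 1% of UMIs in 0.642%, 3.35%, 6.18% and 1.64% of rule barcodes, against between 6.32% (PBS) and 32.7% (day 3) of the other macrophage barcodes.

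Inflammatory and monocyte genes were lower, too. Of 20 inflammatory monocyte genes 2 were higher and 12 lower (median -0.74), and with split UMIs 2 and 9 of 18. Ly6c2, which encodes the Ly6C of inflammatory monocytes, stood at 2.11, 8.36, 137 and 10.2 CPM in rule barcodes, against 4.32, 12.7, 417 and 26.5 CPM, a log2 fold change of -1.31 ± 0.15 (adjusted p = 0.000258, edgeR). Ccr2 stood at 121, 135, 130 and 106 CPM, against 172, 180, 197 and 181 CPM (-0.63 ± 0.06, adjusted p = 4.94e-05, edgeR). Both monocyte genes were still present in the rule barcodes, and Ccr2 was the more even across libraries. Il1b, interleukin 1 beta, stood at 143, 248, 618 and 184 CPM, against 495, 1220, 2194 and 526 CPM (-1.95 ± 0.10, adjusted p = 1.62e-06, edgeR). Other lower genes were Ly6i (-2.72 ± 0.11), Acod1, which makes itaconate (-2.12 ± 0.10), Itgax, which encodes CD11c (-1.80 ± 0.11), and the complement gene C3 (-1.33 ± 0.07). F10, Nos2, Ifitm1, Plbd1, Mcemp1, Sirpb1a and Slc4a11 also stood among the 15 lowest genes by fold change, between -2.46 and -1.98. Hbb-bs headed that group, and 1033 of its UMIs lay in the other macrophage barcodes of the day 7 library.

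Interferon-response genes were lower by a smaller step that ran through nearly the whole list. Of 32 type I interferon genes 0 were higher and 26 lower (median -0.45), with 23 lower in split UMIs. With members chosen after thinning to 2000 UMIs, 13 were lower. Of 19 interferon-gamma genes 0 were higher and 19 lower (median -0.71). Isg15, a ubiquitin-like protein, stood at 74.8, 111, 697 and 148 CPM in rule barcodes, against 115, 191, 1298 and 252 CPM, a log2 fold change of -0.85 ± 0.06 (adjusted p = 7.02e-06, edgeR). Irf7, the interferon regulatory factor that amplifies the response, had one of -0.71 ± 0.07. Immediate early genes, which many stimuli switch on within a short time, had 0 higher and 13 lower of 18 (median -0.37). Fos had a log2 fold change of -0.50 ± 0.05. Csf1r stood at 778, 663, 445 and 608 CPM, against 763, 655, 413 and 556 CPM, with a log2 fold change of -0.01 ± 0.04 (adjusted p = 0.902, edgeR).

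**Figure D3:**
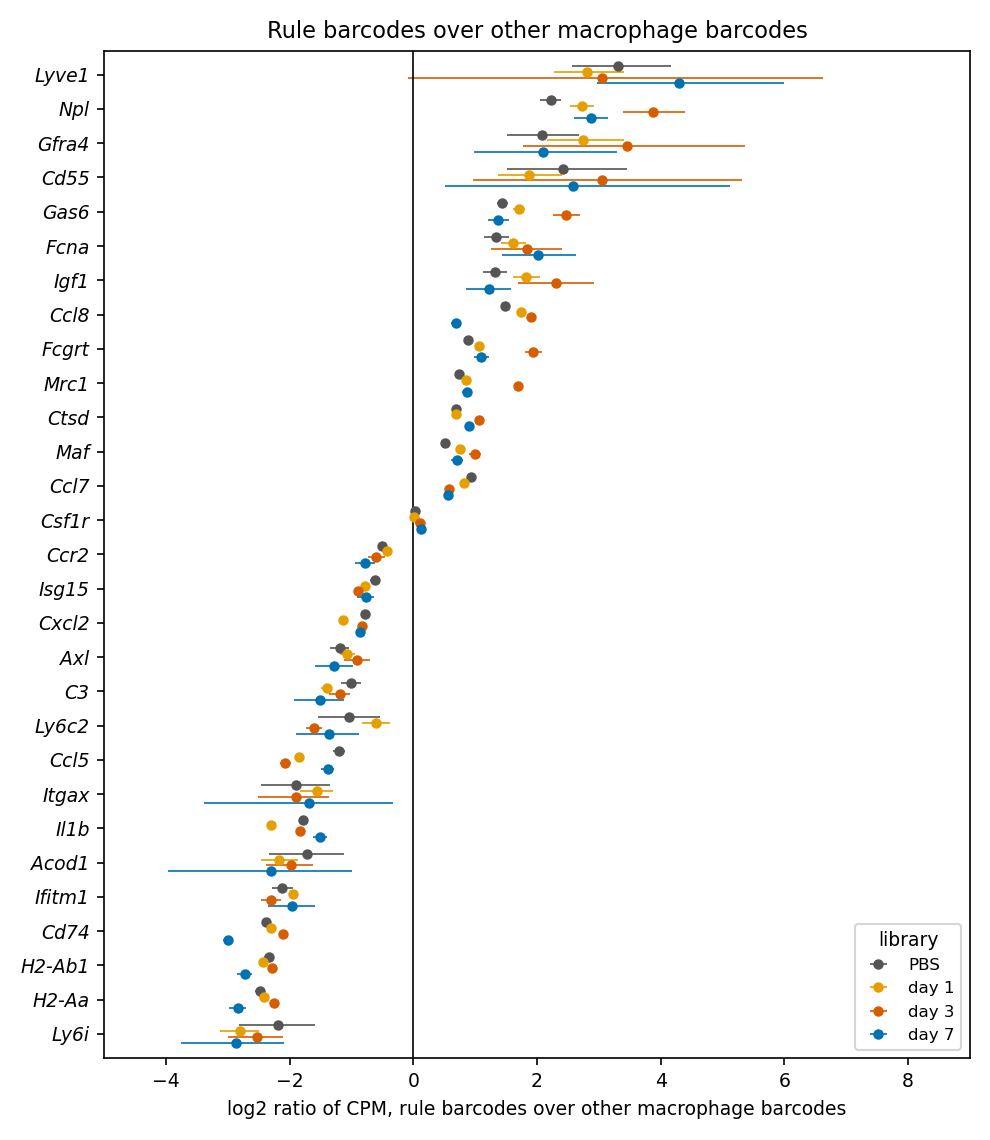
Log2 ratio of summed CPM, rule barcodes over other macrophage barcodes, for 29 genes in each of the 4 libraries, with exact 95% counting intervals as bars. Npl, Gas6 and Ccl8 lie right of 0 and H2-Aa, H2-Ab1, Cd74 and Il1b lie left of 0 in all 4 libraries, while Csf1r lies near 0.

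T and NK cell genes also stood among the highest genes, and their level depended on which barcodes were compared. Cd3g, a chain of the T cell receptor complex, had a log2 fold change of 3.17 ± 0.13, and Nkg7, a cytotoxic granule gene, one of 2.97 ± 0.20. Of 12 T cell markers 10 were higher and 0 lower. The comparison class was limited to 1 lymphoid UMI, and with the same limit on the rule barcodes Cd3g had a log2 fold change of -0.34, Nkg7 one of -0.29, and 0 of 11 T cell markers were higher and 5 lower. Cell cycle genes changed direction with how the barcodes were chosen. Of 30 G2 and M phase genes 25 were higher (median 0.45), but with split UMIs 1 was higher, and after thinning to 2000 UMIs 0 were higher and 20 lower. Mki67, a proliferation marker, had a log2 fold change of 0.37 ± 0.07, of 0.06 with split UMIs and of -0.44 after thinning, so its direction was not settled.

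Within the Folr2, Cbr2 and Stab1 barcodes, each day after cisplatin was set beside the same PBS library as a ratio of summed CPM with its exact 95% counting interval. With 1 library per group there is no test between days, and a gene is counted as higher or lower when it has at least 50 UMIs over both sums and differs at least 2-fold. The PBS library enters all 3 comparisons, so an unusual value there would enter each of them. Scaling by the trimmed mean of M-values in place of the total would move the log2 ratios by -0.10 on day 1, -0.05 on day 3 and 0.04 on day 7.

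At 1 day after cisplatin the rule barcodes had more RNA of p53 target genes and of MHC II genes and less of cell division genes. In all 684 of 11766 genes were higher (5.81%) and 226 lower (1.92%), with a median log2 ratio of 0.09. Of 30 p53 targets 11 were higher and 0 lower (median 0.66). Cdkn1a, which encodes the cell cycle inhibitor p21, stood at 615 CPM on day 1, against 258 CPM in PBS, a log2 ratio of 1.26 (1.22 to 1.30). Phlda3, an inhibitor of AKT signalling, stood at 63.5 CPM, against 7.67 CPM (3.05, 2.83 to 3.28), and Trp53inp1 had a log2 ratio of 2.53. Each of these 3 genes was also higher in the other macrophage barcodes, with log2 ratios of 1.33, 2.56 and 2.39.

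Of 30 G2 and M phase genes 0 were higher and 28 lower on day 1 (median -1.81, beside -2.12 in the other macrophage barcodes). Mki67 stood at 38.0 CPM on day 1, against 135 CPM in PBS (log2 ratio -1.82, -1.92 to -1.73), and Plk1, a mitotic kinase, at 3.89 CPM, against 28.1 CPM (-2.85, -3.12 to -2.59). Of 13 MHC II genes 5 were higher and 0 lower, and H2-Ab1 had a log2 ratio of 1.74 in rule barcodes and 1.83 in the others, so its gap between the classes was kept. Ccl8 had a log2 ratio of 1.07 (1.04 to 1.11), against 0.81 in the other macrophage barcodes. Mrc1 stood at 1045 CPM, against 1022 CPM.

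RNA of other cells moved with day 1. Gzmf, a granzyme gene of cytotoxic lymphocytes, had 1548 UMIs in 177 rule barcodes, against 1 UMI in PBS, and in rule barcodes with at most 1 lymphoid UMI it stood at 4.71 CPM, against 0 in PBS. S100a9, an abundant neutrophil gene, had 449 UMIs in 219 rule barcodes, a log2 ratio of 5.56, and of 4.89 with that limit on lymphoid UMIs. With the limit 425 of 11383 genes were higher on day 1, in place of 684 of 11766. With a window of 4000 to 16000 UMIs per barcode 426 of 11045 were higher. The part of lymphocyte and neutrophil RNA in the other day 1 ratios was not tested.

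At 3 days after cisplatin, when the rule barcodes were fewest, they carried more RNA of interferon-response genes, of several chemokine genes and of the monocyte genes Ly6c2 and Plac8. In all 659 of 10412 genes were higher (6.33%) and 657 lower (6.31%), with a median log2 ratio of -0.02. The starts of 3 interferon-response genes are shown because 31 of the 32 list genes were higher together. The runs are built as above, with GAAANNGAAA, the core of the interferon-stimulated response element, in capitals on either strand (TTTCNNTTTC is its reverse complement). Isg15 lies at chr4:156200819-156201018 on the minus strand, Ifit3 at chr19:34583329-34583528 on the plus strand and Rsad2 at chr12:26456453-26456652 on the minus strand.
Isg15: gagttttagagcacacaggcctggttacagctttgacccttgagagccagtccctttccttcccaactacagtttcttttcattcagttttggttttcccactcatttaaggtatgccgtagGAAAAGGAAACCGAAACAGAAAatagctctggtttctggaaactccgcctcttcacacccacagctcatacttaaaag
Ifit3: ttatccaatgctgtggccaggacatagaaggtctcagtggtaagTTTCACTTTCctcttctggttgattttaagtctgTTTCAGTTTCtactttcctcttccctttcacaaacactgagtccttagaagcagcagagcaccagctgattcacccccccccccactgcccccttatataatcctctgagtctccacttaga
Rsad2: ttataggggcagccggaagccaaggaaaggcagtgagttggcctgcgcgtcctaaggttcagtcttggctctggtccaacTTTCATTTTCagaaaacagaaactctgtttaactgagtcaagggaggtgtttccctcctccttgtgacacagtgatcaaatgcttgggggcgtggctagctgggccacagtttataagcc
The runs hold 3, 2 and 1 matches, and those of Isg15 overlap one another. Of the 24 type I interferon list genes with a start in the table, 12 hold the motif in this window at any of their starts. Of all 32851 single starts 746 hold it (2.27%), again an unlike measure. A match is a description of the letters only.

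Of 32 type I interferon genes 31 were higher and 0 lower on day 3 (median log2 ratio 2.41), beside 2.51 in the other macrophage barcodes. Isg15 stood at 697 CPM on day 3, against 74.8 CPM in PBS (log2 ratio 3.22, 3.13 to 3.31). Rsad2, the antiviral enzyme viperin, stood at 367 CPM, against 39.8 CPM (3.20, 3.08 to 3.33), and Ifit3, which binds foreign RNA in complexes, at 303 CPM, against 36.6 CPM (3.05, 2.92 to 3.18). The day 1 and day 7 levels of Rsad2 were 84.9 and 61.1 CPM and those of Ifit3 53.1 and 76.8 CPM, so both were highest on day 3. Of 17 interferon-gamma genes 14 were higher and 0 lower (median 2.04, beside 2.10 in the other macrophage barcodes), so the list rose alike in both classes. Within it Cxcl9, a target of interferon gamma, had a log2 ratio of 3.00 in rule barcodes and 1.94 in the others.

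Ly6c2 stood at 137 CPM on day 3, against 2.11 CPM in PBS, a log2 ratio of 6.03 (5.60 to 6.48), with 496 UMIs in 137 of the 340 rule barcodes. Its log2 ratio in the other macrophage barcodes was 6.59, and in rule barcodes with at most 1 lymphoid UMI it was 6.59 as well. Plac8, another monocyte gene, had a log2 ratio of 5.07, and Ly6a, which encodes Sca-1, stood at 1529 CPM, against 101 CPM (3.92, 3.86 to 3.99). Of 15 inflammatory monocyte genes 6 were higher and 1 lower on day 3 (median 0.45, beside 1.32 in the others), and on day 1 11 were higher and 1 lower of 20 (median 1.13). After thinning to 2000 UMIs, Ly6c2 was detected on day 3 in 15.7% of rule barcodes, in 26.0% of the other macrophage barcodes and in 34.6% of barcodes with at least 5 lymphoid UMIs that failed the rule (40.3%, 41.2% and 48.7% unthinned), so the rule barcodes had the lowest share of the 3. Ccl8 stood at 2033 CPM, against 450 CPM (2.17, 2.13 to 2.22), the highest of the 4 libraries. Gzmb, a cytotoxic lymphocyte gene, had a log2 ratio of 5.43, and of 4.27 in barcodes with at most 1 lymphoid UMI. The 12 T cell markers summed to 287 CPM on day 3, against 36.5 CPM in PBS, and their part in these ratios was not tested.

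Some resident macrophage genes were lower on day 3, with log2 ratios nearer to 0 in the rule barcodes than in the others. Of 23 such genes 3 were higher and 8 lower (median -0.50), beside a median of -1.24 in the other macrophage barcodes. Mrc1 stood at 742 CPM on day 3, against 1022 CPM in PBS, a log2 ratio of -0.46 (-0.52 to -0.40), beside -1.41 in the others. Gas6 had a log2 ratio of -0.52 beside -1.56, Npl one of -0.83 beside -2.48 and Igf1 one of -1.32 beside -2.31. The rule selects on genes of this kind, and the difference between the classes was not tested. Of 30 G2 and M phase genes 30 were lower (median -2.75, beside -2.48 in the others). Of 27 p53 targets 9 were higher and 1 lower (median 0.75, beside 0.69 in the others).

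At 7 days after cisplatin 6 of 32 type I interferon genes were higher and 0 lower (median log2 ratio 0.53), and other genes stood out. In all 506 of 10379 genes were higher (4.88%) and 681 lower (6.56%), with a median log2 ratio of -0.14. Slc39a1, which encodes the zinc importer ZIP1, stood at 80.3, 86.6, 68.0 and 613 CPM across the 4 libraries, a day 7 log2 ratio of 2.93 (2.84 to 3.02). Rpgrip1, a gene best known from photoreceptor cilia, had a log2 ratio of 3.23, Spry2, a feedback inhibitor of receptor tyrosine kinases, one of 3.21, and Acot2, a mitochondrial acyl-CoA thioesterase, one of 3.24. These 4 genes had log2 ratios of 3.12, 3.38, 3.09 and 3.36 in the other macrophage barcodes. They were high in both classes of the day 7 library, which is 1 library.

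Some genes of lipid handling (1 higher and 4 lower of 18) and most of a list of osteoclast genes, which mark multinucleate bone-resorbing macrophages, were lower on day 7. Lpl, lipoprotein lipase, stood at 3.41 CPM, against 29.4 CPM in PBS, a log2 ratio of -3.11 (-4.02 to -2.32), beside -1.45 in the other macrophage barcodes. Of 6 osteoclast genes 0 were higher and 5 lower (median -1.96, beside -0.69 in the others). Atp6v0d2, a proton pump subunit, had a log2 ratio of -2.99, and Ctsk, cathepsin K, stood at 60.6, 134, 109 and 13.1 CPM across the libraries, a day 7 log2 ratio of -2.21 (-2.64 to -1.80), beside 0.52 in the others. Ctsk on day 7 was thus the lowest of the 4 libraries in the rule barcodes and above its PBS value in the others, a difference that was not tested. S100a4 stood at 1668, 1475, 1235 and 380 CPM, a day 7 log2 ratio of -2.13.

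Chemokine genes kept part of their course to day 7. Ccl7 stood at 2598 CPM, against 769 CPM in PBS (log2 ratio 1.76, 1.72 to 1.79), and Ccl12 at 1680 CPM, against 708 CPM (1.25, 1.21 to 1.29). Ccl8 stood at 650 CPM, against 450 CPM (0.53, 0.47 to 0.59), and Npl stood at 121 CPM, against 62.9 CPM (0.95, 0.80 to 1.10). Ccl7 and Npl were highest on day 7 and Ccl8 on day 3. Fibroblast genes moved with day 7 as well. The 10 markers summed to 411 CPM, against 46.5 CPM in PBS, with Col1a1 at 460 UMIs in 32 of the 489 rule barcodes, and the part of fibroblast RNA in the other ratios was not tested. The mast cell markers summed to 1.57 CPM on day 7, against 43.8 CPM in PBS.

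**Figure D4:**
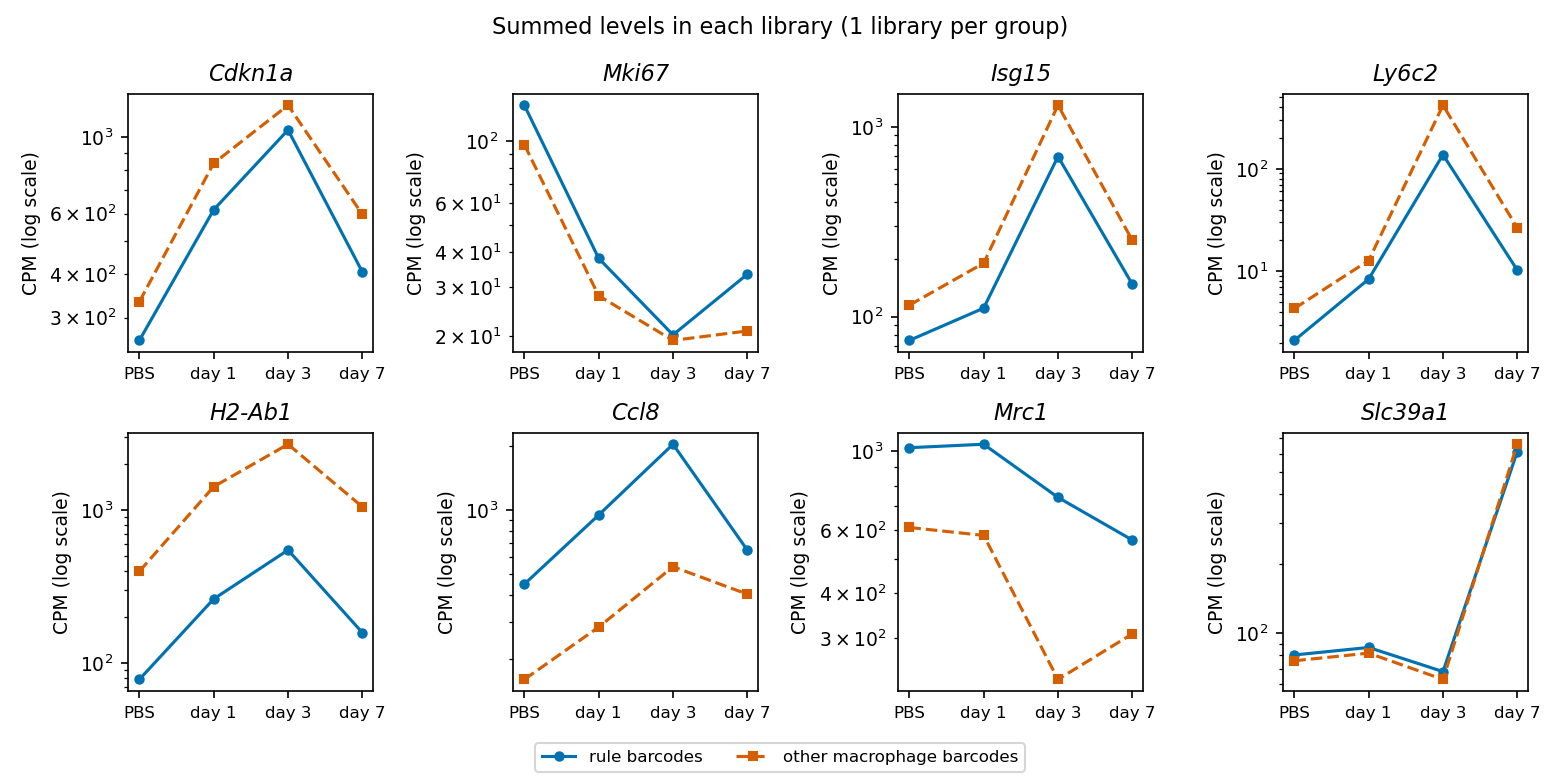
Summed CPM (log axes) of 8 genes in rule barcodes (solid) and other macrophage barcodes (dashed) in PBS and on days 1, 3 and 7, 1 library per group. In rule barcodes Isg15 and Ly6c2 were highest on day 3, at 697 and 137 CPM, and Slc39a1 on day 7, at 613 CPM, while Mki67 was highest in PBS, at 135 CPM.

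Rule barcodes with a Cd163 UMI were compared with those without, a split chosen after its values were seen and reported with no test. They numbered 131 of 2803 in PBS (4.67%), 312 of 2749 on day 1 (11.3%), 13 of 340 on day 3 (3.82%) and 50 of 489 on day 7 (10.2%). Their median depths of 7494, 12502.5, 6986 and 7771 UMIs stood beside 7687.5, 12175, 9785 and 7188 in the rest, so on day 3 they were shallower. Barcodes with Cd163 held far more Lyve1, at 46.7, 32.9, 10.5 and 71.1 CPM, against 4.23, 4.83, 0.568 and 4.13 CPM without Cd163. The day 3 value is 1 UMI, whose log2 ratio of 4.20 has an interval of -1.68 to 8.47. Ccl8 stood at 1941, 2645, 7970 and 1594 CPM, against 380, 721, 1872 and 532 CPM.

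Ccl6, Npl and Igf1 were also compared. Like Lyve1 and Ccl8, they are among the genes with the largest differences of this split, so their shared direction follows from that choice. Ccl6 stood at 237, 491, 1875 and 405 CPM with Cd163, against 43.3, 149, 215 and 187 CPM without. Npl stood at 136, 129, 94.3 and 275 CPM, against 59.4, 51.8, 33.8 and 102 CPM, and Igf1 at 69.1, 61.8, 20.9 and 87.6 CPM, against 29.2, 24.0, 12.2 and 28.6 CPM. The levels with Cd163 were above those without in each library, but Igf1 on day 3 rests on 2 UMIs and its interval spans no difference. MHC II did not follow, since H2-Ab1 stood at 108, 247, 314 and 97.1 CPM, against 77.1, 265, 553 and 166 CPM, above in PBS and below on the 3 days. Csf1r had log2 ratios of -0.06, 0.06, -0.61 and -0.15. Genes at the other end of the split were lower with Cd163, among them Cd72, with log2 ratios of -0.58, -0.72, -1.20 and -1.12. S100a4 had log2 ratios of -0.50, -0.36, -0.71 and -0.34.

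**Figure D5:**
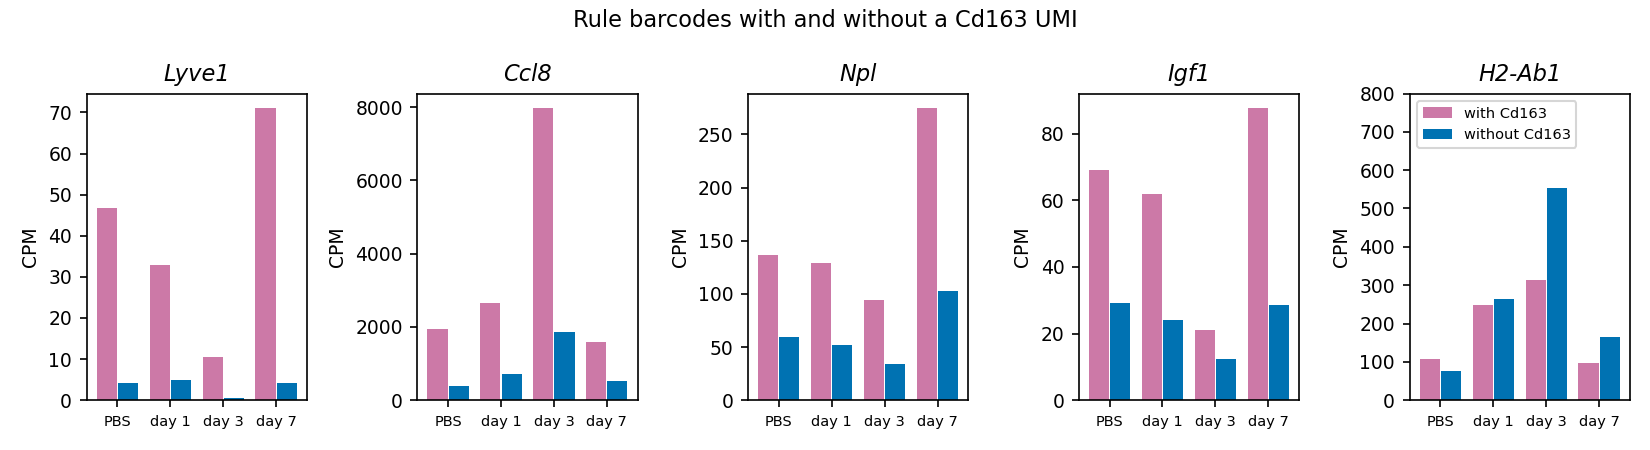
Summed CPM of Lyve1, Ccl8, Npl, Igf1 and H2-Ab1 in rule barcodes with a Cd163 UMI (left bar) and without (right bar) in the 4 libraries, which hold 131, 312, 13 and 50 barcodes with Cd163. In PBS Lyve1 stood at 46.7 CPM with Cd163 and 4.23 CPM without, and Ccl8 at 1941 and 380 CPM.

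By position in the mm10 build (GENCODE vM21), Folr2 lies on chromosome 7 at 101839988 to 101857194, Cbr2 on chromosome 11 at 120729489 to 120732114, Stab1 on chromosome 14 at 31139013 to 31168641, Cd163 on chromosome 6 at 124304656 to 124330527 and Cd209f on chromosome 8 at 4102787 to 4105835. Of the genes the results turn on, Npl lies on chromosome 1 at 153503015 to 153550045, Lyve1 on chromosome 7 at 110850607 to 110863239, Mrc1 on chromosome 2 at 14229392 to 14332057, Ccl8 on chromosome 11 at 82115185 to 82116799 and Slc39a1 on chromosome 3 at 90248172 to 90253612. The rule genes thus lie on 5 different chromosomes, and UMIs were counted per whole gene.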

How the data were processed

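Barcodes from 4 libraries were analysed as raw UMI counts per gene and barcode, which the authors deposited as whole numbers for 31053 features. Per the submitters' processing notes, Cell Ranger 3.1.0, mm10 and Seurat 3.1.2 were used, the last in a role that is not given. No column of other samples was present (0). The barcodes were picked, and the gene lists and comparisons chosen, with earlier results of these data known.

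Counts were summed per library and class. The 2 classes were compared with edgeR 4.0.16 (quasi-likelihood, trimmed mean of M-values, library as block, its expression filter, R 4.3.3) on 12370 genes, with Benjamini-Hochberg adjustment, and with DESeq2 1.42.0 as an alternative. The library pairs the sums because both come from the same tumours. On simulated counts (12297 genes fitted) all of 50 genes changed 2-fold were called (100%), 74% of those raised 1.5-fold, 54% of those lowered to 0.667-fold, and 0.0413% of 12097 unchanged genes. The simulation drew both classes from the proportions of the other macrophage barcodes, at 1 fixed dispersion. It had no selection of barcodes on their RNA, and each change was the same in all libraries. Its rates therefore do not carry over to the calls on the real counts. Days were compared as CPM ratios with exact conditional binomial intervals, a count of 0 being set to a floor of 3 counts. Intervals are at 95% and cover counting error only. Scores from scanpy 1.11.5 (Scrublet) served for doublets, with Python 3.11.15 for the rest.

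The genes named are the 15 highest and 15 lowest by fold change with 1 direction in 4 libraries and at least 50 UMIs, the 10 highest and 10 lowest per day, up to 5 members per list, and a set of lineage, gate and response genes. Some genes of these sets are not reported here. The rule genes and gene models without a name were not counted among them. Alternatives were the number of rule genes, mitochondrial limit, thinning, a depth window, doublet removal, the lymphoid limit, the comparison class, the UMI minimum, the scaling, the block and leaving out each library.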

Additional observations from a re-analysis of the deposited data

Results flagged for a closer look

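The log2 ratio of Ctsk between rule barcodes and other macrophage barcodes was 1.31 on day 3 and -2.65 on day 7, in opposite directions. The difference was not tested, and Ctsk levels in the rule barcodes are 109 and 13.1 CPM. Mast cell protease genes turned between libraries as well. Mcpt2 had a log2 ratio of 2.67 in PBS and -1.38 on day 1 between rule barcodes and the others, and its day 1 log2 ratio to PBS was -1.55 in rule barcodes and 2.50 in the others. Its UMIs numbered 239 in PBS and 129 on day 1 in rule barcodes, against 41 and 232 in the others. Tpsb2 had log2 ratios of 1.01 in PBS and -1.02 on day 1. The 10 mast cell markers summed to 43.8 and 65.2 CPM in rule barcodes of these libraries, against 16.6 and 120 CPM in the others. None of these differences was tested, and the part of mast cell RNA was not tested either.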

How the results depend on the processing

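Shares of rule barcodes moved with the rule and the depth. In PBS, day 1, day 3 and day 7 they were 64.8%, 62.7%, 23.0% and 39.8% with 2 or more rule genes, 1.29%, 3.50%, 0.0806% and 1.26% with 4 or more, 9.52%, 7.81%, 1.43% and 4.58% when thinned, and 38.0%, 39.7%, 7.99% and 20.4% of macrophage barcodes under the same limits. At most 5% mitochondrial UMIs gave 35.8% in PBS and 38.7% on day 1, and doublet removal gave 35.1% on day 1. Against the other macrophage barcodes, DESeq2 called 785 genes higher and 1149 lower of 12370. Barcodes with 4 or more rule genes gave 621 and 995 of 10522, and split UMIs 645 higher of 11050. Leaving out each library in turn gave 533 to 1303 higher and 841 to 1402 lower, of 11684 to 12595 tested. Without the library block edgeR called 0 and 0, with 329 higher and 248 lower of 12370 at an unadjusted p under 0.05. Mki67 turned to -0.044 with all other kept barcodes as the comparison class and to -0.44 with members chosen after thinning. With all other kept barcodes as the comparison class Cd3g turned to -1.06, Nkg7 to -1.06 and Thy1 to -0.88. With at most 1 lymphoid UMI Cd3g was -0.34, Nkg7 -0.29 and Thy1 -0.66, and Cd3g and Nkg7 are among the genes of that limit. Of the gene values against the other macrophage barcodes, over all alternatives, 854 kept direction and call, 83 lost the call, 4 gained it and 8 turned. Of those for days against PBS, 201 stayed within the interval of the reported value, 184 left it and 4 turned. The number of genes tested differs between settings, so counts alone do not compare. Genes 2-fold higher on day 1 were 1066 of 13065 with at least 20 UMIs and 299 of 9725 with 200. With 4 or more rule genes they were 385 of 7545, and in the depth window 426 of 11045. They were 425 of 11383 with at most 1 lymphoid UMI and 217 of 9201 with members chosen after thinning. In the depth window 350 of 11045 were lower. On day 3, 394 of 8114 (200 UMIs), 203 of 2824 (4 rule genes) and 388 of 7702 (members chosen after thinning) were higher. On that day 342 of 8114 (200 UMIs) and 402 of 2824 (4 rule genes) were lower, beside 657 of 10412 in the main setting. On day 7, in the same order, 302 of 8086, 147 of 3435 and 273 of 7783 were higher. Lower were 402 of 8086 and 324 of 3435, beside 681 of 10379. With 4 or more rule genes Cxcl10 turned to -1.72 and Il1b to -0.21 on day 3, and Mcpt2 to 1.60 on day 1. The day 3 values of that setting rest on 4 barcodes, too few to judge a direction. Mcpt2 was 0.76 with members chosen after thinning. The causes were not tested. No paired analysis was possible because each group has 1 library, other than the block of the 2 classes by library. With few day 3 barcodes, low genes there are limited by depth.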
